A study of Mus musculus with 6 samples.

Results

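The genes described here encode the nuclear subunits of respiratory complexes II to V, with cytochrome c, in ileal epithelial cells of Ogt knockout and control mice. They were taken from the deposited expression table by name: Sdha to Sdhd, every gene whose name starts with Uqcr, Cox4 to Cox8 or Atp5, Cyc1 and Cycs, without pseudogenes and without the mitochondrially encoded genes. This gave 51 of 22274 genes: 4 of complex II, 9 of complex III, 1 for cytochrome c, 18 of complex IV and 19 of complex V. Ogt encodes the enzyme that attaches O-linked N-acetylglucosamine to nuclear and cytosolic proteins.

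The knockout mice, named Olfm4∆Ogt, are labelled an intestinal stem cell-specific Ogt knockout and carried floxed Ogt with Olfm4-CreER, a Cre driven by a gene of crypt stem cells, and the controls, named Olfm4Ctrl, are labelled LoxP. Tamoxifen was given for 3 days to mice aged 2 months, ileal tissue was collected on day 10, and each group has 3 libraries of RNA from isolated epithelial cells. The labels do not say whether the controls carried a Cre driver or received tamoxifen, nor whether each library came from its own mouse, so an effect of Cre or tamoxifen and the loss of Ogt cannot be told apart, and p-values measure the spread between these libraries. Libraries held between 14389429 and 18076479 estimated counts. Levels are given as CPM, the counts of a gene relative to its library's TMM-scaled total, when a gene is compared between libraries, and as deposited FPKM, which accounts for length, when genes are compared with each other. Fold changes are log2 values of knockout over control with their standard errors, from edgeR's quasi-likelihood test, with p-values adjusted by Benjamini-Hochberg over the 14005 tested genes and a threshold of 0.05. In bulk RNA, fewer cells of a type and less RNA per cell cannot be told apart.

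Complexes II, III and IV pass electrons from succinate and ubiquinol to oxygen, with cytochrome c carrying them between complexes III and IV, and complexes III and IV pump protons across the inner mitochondrial membrane. Complex V, the ATP synthase, lets the protons flow back through a rotating ring in the membrane and uses that rotation to make ATP in its soluble head. Most of the subunits are encoded in the nucleus and are assembled with a small core made inside the mitochondrion. Absorptive cells of the gut use the ATP for nutrient and ion transport.

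Ogt itself had 48.5, 43.0 and 36.0 CPM in the knockout libraries, against 140, 127 and 128 CPM in the control libraries. It fell by 1.63 ± 0.13 on the log2 scale (adjusted p = 0.00121), and the groups did not overlap. The labelled tissue was matched by its markers. The 8 epithelial genes summed to between 16193 and 19519 CPM in knockout libraries and to between 17605 and 22200 CPM in control libraries. None of the 8 passed the test. Genes of other tissues were present too. The smooth muscle list summed to between 1186 and 1801 CPM in knockout libraries, against between 1347 and 2892 CPM in control libraries. The lymphocyte list summed to between 994 and 1777 CPM, against between 625 and 2154 CPM. The fibroblast and stroma list summed to between 480 and 574 CPM, against between 367 and 519 CPM, and its Col1a1 and Col1a2 rose.

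Of the 51 genes, 45 passed the filter on low counts and were tested. In the knockout 12 of them fell and none rose. The 12 are 26.7% of the tested members, and 9.37% of all tested genes fell, while 9.33% of all tested genes rose. At an unadjusted p under 0.05 the numbers were 18 lower and 1 higher, but genes at that level were not counted over all tested genes. DESeq2 called 13 members lower and 1 higher, and 1503 of all tested genes lower and 1626 higher. All 3 knockout libraries lay below all 3 control libraries for 18 members, or 40.0% of those tested, where 20.2% of all tested genes did so. The reverse held for 2 members, or 4.44%, where 19.6% of all tested genes did so, and the groups overlapped for the other 25. The median log2 fold change of the 45 was -0.18, beside -0.05 over all tested genes, with 36 negative and 9 positive values. With libraries scaled by their size alone the median of all tested genes was 0.09 and that of the members -0.05, with 27 negative and 18 positive values, and the distance between the medians was -0.14 under either scaling. With a library left out that distance lay between -0.21 (without control library 3) and -0.09 (without knockout library 3).

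The changes were of modest size. Only Atp5f1e fell by more than 2-fold, and the fitted level of the other called members in the knockout was between 0.50 and 0.775 of that in control. By complex, 7 of 18 tested members of complex V fell, 3 of 13 of complex IV, 2 of 9 of complex III and 0 of 4 of complex II, and cytochrome c did not pass the test. The median log2 fold changes were -0.26 for complex V, -0.29 for complex IV, -0.17 for complex III and -0.03 for complex II. With a library left out, between 1 and 5 members of complex V, between 1 and 3 of complex IV and between 0 and 2 of complex III were called lower. Differences between the complexes were not tested.

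Relative to the control mean, the median member stood at -0.14, -0.18 and -0.30 on the log2 CPM scale in knockout libraries 1, 2 and 3, against 0.00, 0.01 and -0.05 in control libraries 1, 2 and 3. Knockout library 3 was the lowest, and the same median over all tested genes lay between -0.02 and -0.01 in the knockout libraries. By the mean chi-square of counts per gene, control library 1 lay at 82.4 and 62.8 from control libraries 2 and 3. It lay between 69.9 and 107 from the knockout libraries. Control libraries 2 and 3 lay 35.5 apart, and the knockout libraries between 20.6 and 29 apart. The number of members called lower was sensitive to the libraries used. It was 8 without knockout library 1, 3 without knockout library 2, 3 without knockout library 3, 10 without control library 1, and 5 without either control library 2 or control library 3. In the same 6 fits between 460 and 1372 of all tested genes were called lower. The calls of Cox7b and Atp5f1d held in all 6.

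**Figure D1:**
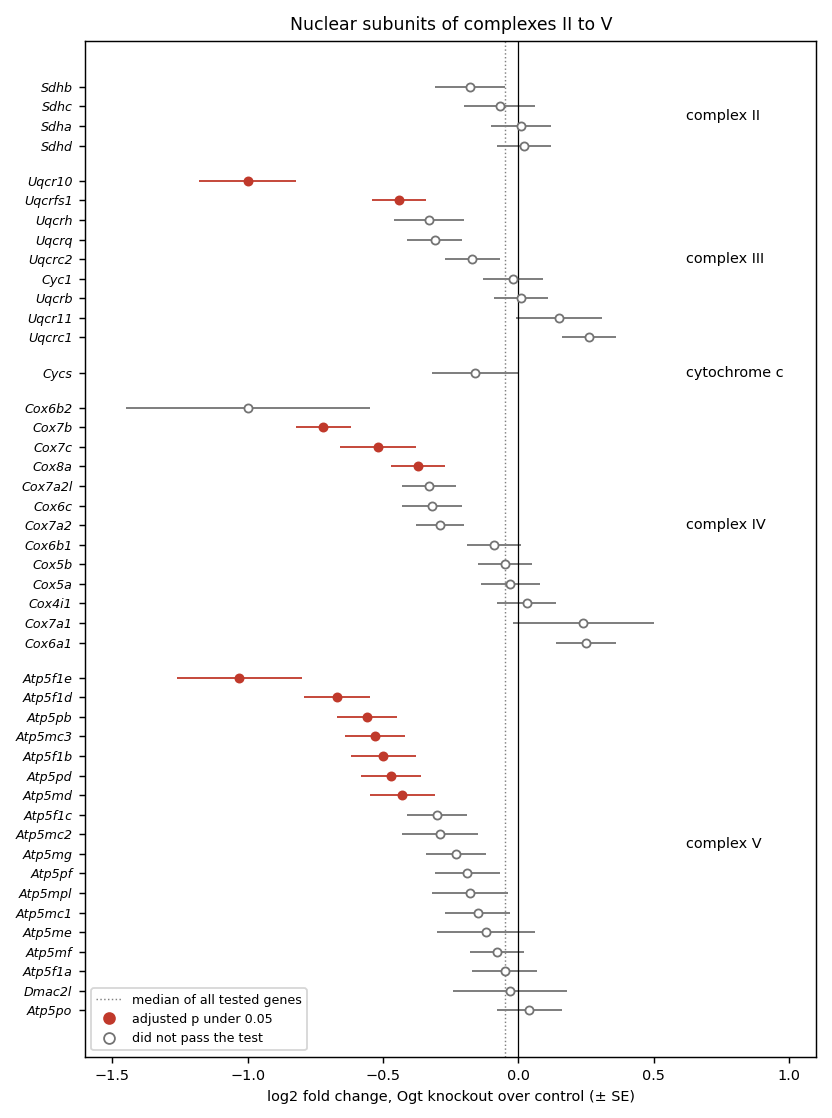
Log2 fold change of each of the 45 tested members (Ogt knockout over control, horizontal axis), with bars for the standard error, grouped by complex; filled points passed the adjusted p threshold of 0.05 and open points did not. The 12 filled points all lie left of 0, 7 of them in complex V, and the dotted line marks the median of all tested genes at -0.05.

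The DNA before the start site is shown for the called subunit with the largest fold change in each of complexes III, IV and V, and for Cox6a1, whose knockout libraries lay above the control ones, because these windows differ in their motifs. The windows below hold the 200 bases before the RefSeq start on GRCm38.p6, read 5′ to 3′ along the gene's strand. Capitals mark matches, on either strand, to 3 motifs known from respiratory gene promoters: CCGGAAG, bound by ETS factors such as GABP, the NRF1 motif, made of GCGCA and GCGC with any base between them, and the GC box GGGCGG, bound by Sp1.
Uqcr10 (chr11:4704345-4704544, minus strand): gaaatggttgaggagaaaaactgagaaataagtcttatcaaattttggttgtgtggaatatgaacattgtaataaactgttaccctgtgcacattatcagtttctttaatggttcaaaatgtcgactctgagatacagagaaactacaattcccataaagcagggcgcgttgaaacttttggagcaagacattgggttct
Cox7b (chrX:106015500-106015699, plus strand): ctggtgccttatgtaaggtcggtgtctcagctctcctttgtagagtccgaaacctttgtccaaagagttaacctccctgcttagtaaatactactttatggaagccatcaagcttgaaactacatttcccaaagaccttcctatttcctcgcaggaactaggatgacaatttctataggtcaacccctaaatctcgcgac
Atp5f1e (chr2:174464102-174464301, minus strand): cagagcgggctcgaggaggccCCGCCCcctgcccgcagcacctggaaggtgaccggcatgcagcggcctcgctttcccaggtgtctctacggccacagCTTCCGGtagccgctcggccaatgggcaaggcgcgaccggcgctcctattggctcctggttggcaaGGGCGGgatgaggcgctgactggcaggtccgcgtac
Cox6a1 (chr5:115348959-115349158, minus strand): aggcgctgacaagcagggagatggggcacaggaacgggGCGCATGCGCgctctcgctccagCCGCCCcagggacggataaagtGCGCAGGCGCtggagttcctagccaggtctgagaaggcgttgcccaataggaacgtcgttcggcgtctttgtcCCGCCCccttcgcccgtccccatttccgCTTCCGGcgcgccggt
The windows of Uqcr10 and Cox7b hold no match to any of the 3 motifs, that of Atp5f1e holds 1 ETS match and 2 GC boxes, and that of Cox6a1 holds 1 ETS match, 2 NRF1 matches and 2 GC boxes. No printed match overlaps another. Uqcrc1 was the other tested member whose knockout libraries lay above the control ones. Its window, not printed here, held no match in the 250 bases searched.

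RefSeq windows were found for 38 members, 36 of them tested, and the search covered 250 bases before the start. The ETS motif occurred in 9 of the 36, or 25.0%, and in 10.2% of 17491 protein-coding genes. The NRF1 motif occurred in 7, or 19.4%, and in 5.8% of protein-coding genes. The GC box occurred in 12, or 33.3%, and in 45.8% of protein-coding genes. Among the 12 members that fell, 2 held the ETS motif, 1 the NRF1 motif and 4 the GC box. Among the 24 other tested members, 7 held the ETS motif, 6 the NRF1 motif and 8 the GC box. A match is a run of letters and not a measured binding site. To check the windows, 30 bases downstream of the start were looked up in GENCODE M21 transcripts of the same gene. They were found for 29 of the 38 members.

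Complex II, succinate dehydrogenase, showed no called change in any of its 4 subunits, and both groups overlapped for each. Sdha, the flavoprotein that oxidises succinate, had 374, 360 and 390 CPM in knockout libraries, against 352, 367 and 395 CPM in control libraries. Its log2 fold change was 0.01 ± 0.11 (adjusted p = 0.943). Sdhb, the iron-sulfur subunit, had 159, 165 and 145 CPM in knockout libraries, against 150, 188 and 194 CPM in control libraries, and was at -0.18 ± 0.13 (adjusted p = 0.345). The membrane anchors Sdhc and Sdhd were at -0.07 ± 0.13 and 0.02 ± 0.10. Sdhd was the most abundant of the 4 per length, with 233 FPKM in the knockout and 210 FPKM in control. The summed level of the complex was 915 ± 8.65 CPM in the knockout and 935 ± 74.4 CPM in control (SD, n = 3 each).

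In complex III, which passes electrons from ubiquinol to cytochrome c, 2 of 9 subunits fell. Uqcr10, a small membrane subunit of the complex (ENSMUSG00000059534), had 44.7, 31.9 and 28.9 CPM in knockout libraries, against 82.5, 66.2 and 62.0 CPM in control libraries. The groups did not overlap, and the level was 50.0% lower in the knockout. The log2 fold change was -1.0 ± 0.18 (adjusted p = 0.0109), and the adjusted p was 0.0515 without knockout library 2. Uqcr10 had the lowest fold change of the 9.

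Uqcrfs1, the Rieske iron-sulfur protein that takes the electron from ubiquinol (ENSMUSG00000038462), had 196, 176 and 183 CPM in knockout libraries, against 245, 255 and 253 CPM in control libraries. Every knockout library lay below every control library, with a log2 fold change of -0.44 ± 0.10 (adjusted p = 0.0193). The adjusted p was 0.0834 without knockout library 2, 0.0758 without knockout library 3, 0.0577 without control library 2 and 0.0663 without control library 3.

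The other 7 subunits did not pass the test. Uqcrq, a small subunit near the ubiquinone site, had 113, 121 and 103 CPM in knockout libraries, against 138, 145 and 137 CPM in control libraries, at -0.31 ± 0.10 (adjusted p = 0.0665). Uqcrh, the acidic hinge protein that helps cytochrome c dock, was the most abundant per length, with 309 FPKM in the knockout and 356 FPKM in control, and its groups overlapped in CPM. The catalytic partner Cyc1, cytochrome c1, was at -0.02 ± 0.11, and Uqcrb, another small subunit, at 0.01 ± 0.10. The core proteins, which form the matrix side of the complex, went apart: Uqcrc2 was at -0.17 ± 0.10 and Uqcrc1 at 0.26 ± 0.10.

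Uqcrc1 (ENSMUSG00000025651) had 315, 343 and 324 CPM in knockout libraries, against 259, 291 and 269 CPM in control libraries. All knockout libraries lay above all control libraries, and the adjusted p was 0.117. The adjusted p was 0.0289 when libraries were scaled by their size alone and 0.0497 by DESeq2. Uqcr11, a further small subunit, was at 0.15 ± 0.16 with overlapping groups.

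Cytochrome c, the soluble carrier encoded by Cycs, had 528, 495 and 470 CPM in knockout libraries, against 434, 612 and 625 CPM in control libraries. Control library 1 lay below all knockout libraries and the other 2 control libraries above them, and the log2 fold change was -0.16 ± 0.16 (adjusted p = 0.511). The table also lists under the name Cycs a retrogene copy, Gm10053, that held between 4397 and 4773 estimated counts in knockout libraries and between 4185 and 5722 in control libraries. Counts of Cycs were not whole in any library, and the level of Cycs is uncertain because the authors' counting could have split reads between such copies.

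In complex IV, cytochrome c oxidase, 3 of 13 tested subunits fell, and all 3 are small subunits that surround the core. Cox7b (ENSMUSG00000031231), needed for assembly of the enzyme, had 131, 125 and 117 CPM in knockout libraries, against 208, 208 and 198 CPM in control libraries. The groups lay far apart compared with their own spread, with means of 124 ± 7.39 CPM in the knockout and 204 ± 5.81 CPM in control (SD, n = 3 each). The log2 fold change was -0.72 ± 0.10 (adjusted p = 0.00385), and the largest adjusted p on leaving out any library was 0.0253.

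Cox7c (ENSMUSG00000017778) had 122, 115 and 111 CPM in knockout libraries, against 199, 155 and 146 CPM in control libraries. The groups did not overlap, although control library 1 stood above the other controls, and the log2 fold change was -0.52 ± 0.14 (adjusted p = 0.0331). Its adjusted p was 0.0461 without control library 1, and between 0.0531 and 0.118 without any other library. Cox8a (ENSMUSG00000035885), the common form of subunit VIII, had 233, 236 and 213 CPM in knockout libraries, against 284, 304 and 294 CPM in control libraries. These groups also stood apart, at -0.37 ± 0.10 (adjusted p = 0.0387), and the adjusted p was 0.0373 without control library 1 and between 0.0903 and 0.138 without any other library. Per length Cox8a averaged 433 FPKM in the knockout and 509 FPKM in control, the highest of complex IV in control, while in the knockout Cox4i1 with 496 FPKM and Cox6a1 with 482 FPKM stood above it.

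The other abundant subunits did not pass the test. Cox4i1, a subunit that contacts the catalytic core, had 361, 375 and 325 CPM in knockout libraries, against 358, 364 and 316 CPM in control libraries, at 0.03 ± 0.11. Cox5a and Cox5b, on the matrix side, were at -0.03 ± 0.11 and -0.05 ± 0.10, and Cox6b1, on the side facing cytochrome c, was at -0.09 ± 0.10. Their groups overlapped. Cox6c at -0.32 ± 0.11 (adjusted p = 0.0757), Cox7a2 at -0.29 ± 0.09 (adjusted p = 0.0560) and Cox7a2l, which links complex IV to complex III in supercomplexes, at -0.33 ± 0.10 (adjusted p = 0.0591) had no overlap between the groups but missed the threshold.

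Cox6a1 (ENSMUSG00000041697), the common form of subunit VIa, had 256, 291 and 242 CPM in knockout libraries, against 227, 227 and 209 CPM in control libraries. All knockout libraries lay above the control libraries, and the log2 fold change was 0.25 ± 0.11 (adjusted p = 0.155; 0.0431 when libraries were scaled by size alone).

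Several complex IV subunits have forms restricted to certain tissues, and these were low or at 0. Cox6a2 and Cox8b are the forms of heart and skeletal muscle. Cox6a2 had 2 estimated counts in knockout library 3, Cox8b had 4 in control library 2, and each had 0 in every other library; depending on the library, 3 counts equal 0.159 to 0.207 CPM. Cox7b2 and Cox8c, known from testis, had 0 counts in all 6 libraries. Cox4i2, known from lung and low oxygen, had 5, 4 and 4 counts in knockout libraries, against 3, 1 and 1 in control libraries, and made up 0.0755% of the summed FPKM of Cox4i1 and Cox4i2 in the knockout and 0.0302% in control (exact two-sided permutation p = 0.10, the smallest that 3 against 3 libraries allow). Cox6b2, known from testis, made up 0.50% of Cox6b1 and Cox6b2 in the knockout and 0.926% in control (exact p = 0.200).

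Cox7a1, the form of heart and skeletal muscle, was the abundant exception, with 20.4, 25.9 and 20.3 CPM in knockout libraries, against 27.3, 14.9 and 14.1 CPM in control libraries. It made up 24.3%, 28.8% and 24.6% of the summed FPKM of Cox7a1 and Cox7a2 in knockout libraries, against 26.2%, 15.6% and 15.8% in control libraries (exact two-sided permutation p = 0.300). Control library 1 lay with the knockout libraries, and Cox7a1 reached an adjusted p of 0.0235, on the higher side, only when that library was left out. Of 18 striated muscle genes 7 were tested and 3 rose, with summed levels of 186, 566 and 567 CPM in knockout libraries, against 24.5, 44.5 and 73.0 CPM in control libraries, and without knockout library 2 only 1 was called higher. Myh1, Myh4, Tnnc2 and Pvalb had 0 counts in all libraries. The part of muscle cells in the level of Cox7a1 was not tested.

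Complex V held most of the members that fell, with 7 of 18 tested subunits, and these came from each of its parts: the catalytic head, the central stalk, the peripheral stalk, the membrane ring and the small membrane subunits. All 3 knockout libraries lay below all control libraries for 8 of the 18. The summed level of its genes was 4701, 4641 and 4337 CPM in knockout libraries, against 5445, 5687 and 5772 CPM in control libraries, a ratio of 0.809.

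**Figure D2:**
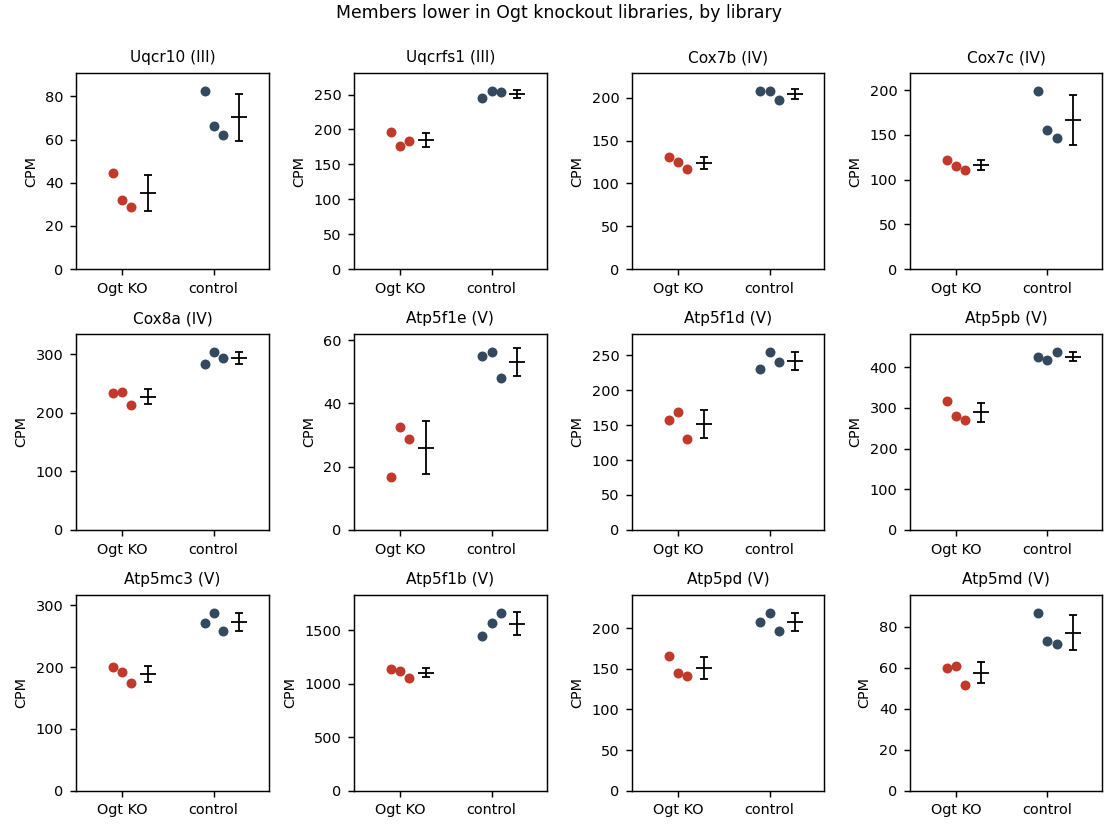
CPM of the 12 members that fell, with a point for each library and a bar for the mean ± SD of each group (n = 3); the complex is given in brackets and every axis starts at 0. No knockout point reaches a control point in any of the 12 panels, which follows in part from showing called members only.

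In the head, the catalytic β subunit fell and the α subunit beside it did not. Atp5f1b (ENSMUSG00000025393), which encodes β, had 1134, 1122 and 1054 CPM in knockout libraries, against 1451, 1573 and 1664 CPM in control libraries. The groups did not overlap, at -0.50 ± 0.12 (adjusted p = 0.0281). Leaving out a library other than control library 1 raised its adjusted p to between 0.0771 and 0.112, and scaling by library size alone gave 0.0531. Atp5f1a (ENSMUSG00000025428), which encodes α, had 1240, 1294 and 1211 CPM in knockout libraries, against 1220, 1291 and 1378 CPM in control libraries. These groups overlapped, at -0.05 ± 0.12 (adjusted p = 0.784). Per length Atp5f1b was the most abundant member of complex V, with 603 FPKM in the knockout and 777 FPKM in control.

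The central stalk turns inside the head, and 2 of its 3 subunits fell. Atp5f1d (ENSMUSG00000003072), the δ subunit, had 158, 169 and 130 CPM in knockout libraries, against 230, 255 and 240 CPM in control libraries. The groups were well separated, at -0.67 ± 0.12 (adjusted p = 0.0109), and no left-out library took the adjusted p above 0.0420. Atp5f1e (ENSMUSG00000016252), the small ε subunit, had 16.7, 32.6 and 28.7 CPM in knockout libraries, against 55.0, 56.3 and 48.0 CPM in control libraries.

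Knockout library 1 was the lowest for Atp5f1e, and the highest knockout value still lay below the lowest control value. The log2 fold change was -1.03 ± 0.23 (adjusted p = 0.0220), and the adjusted p was 0.0666 without knockout library 3 and between 0.0586 and 0.0757 without any of the control libraries. Atp5f1c, the γ subunit that forms the shaft, had 340, 335 and 328 CPM in knockout libraries, against 382, 416 and 435 CPM in control libraries. Its groups did not overlap, but the log2 fold change of -0.30 ± 0.11 missed the threshold (adjusted p = 0.0856).

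The peripheral stalk holds the head still, and again its members differed. Atp5pb (ENSMUSG00000000563), the b subunit, had 316, 281 and 271 CPM in knockout libraries, against 425, 417 and 438 CPM in control libraries. It fell by 0.56 ± 0.11 on the log2 scale with no overlap (adjusted p = 0.0124), and the adjusted p was 0.0610 without knockout library 2 and 0.0607 without knockout library 3. Exons of Atp5pb share 337 bases with Wdr77 on the opposite strand, and the library kit does not mark strand. Wdr77 held 2820 estimated counts over all libraries and was higher in the knockout, at 0.60 ± 0.17 (adjusted p = 0.0471).

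Atp5pd (ENSMUSG00000034566), the d subunit, had 166, 145 and 141 CPM in knockout libraries, against 208, 219 and 197 CPM in control libraries. It fell by 0.47 ± 0.11 with no overlap (adjusted p = 0.0228), and the adjusted p lay between 0.0538 and 0.0922 without knockout library 2 or 3 or control library 2 or 3. Atp5po, the oligomycin-sensitivity protein at the top of the stalk, had 326, 319 and 284 CPM in knockout libraries, against 271, 326 and 309 CPM in control libraries, at 0.04 ± 0.12. Atp5pf, coupling factor 6, was at -0.19 ± 0.12, and Dmac2l, also known as factor B, at -0.03 ± 0.21, both with overlapping groups.

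The membrane ring is built from copies of subunit c, whose mature protein is the same from Atp5mc1, Atp5mc2 and Atp5mc3. Atp5mc3 (ENSMUSG00000018770) had 200, 192 and 174 CPM in knockout libraries, against 271, 288 and 259 CPM in control libraries. It fell by 0.53 ± 0.11 (adjusted p = 0.0137), and the adjusted p was 0.0560 without knockout library 2 and 0.0620 without knockout library 3. Atp5mc1 and Atp5mc2 did not pass the test, at -0.15 ± 0.12 and -0.29 ± 0.14, and their groups overlapped. Of the summed FPKM of the 3 genes, Atp5mc3 made up 57.7%, 58.1% and 58.5% in knockout libraries, against 61.3%, 66.2% and 62.2% in control libraries, so it was the main c-ring transcript in every library.

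Among the small membrane subunits several of which help the synthase to pair up, 1 of 5 fell. Atp5md (ENSMUSG00000071528) had 60.1, 60.9 and 51.6 CPM in knockout libraries, against 86.9, 73.3 and 71.5 CPM in control libraries. The groups did not overlap, at -0.43 ± 0.12 (adjusted p = 0.0403), and no fit with 1 library left out called it, with adjusted p-values between 0.0776 and 0.140. Atp5mg, Atp5mpl, Atp5me and Atp5mf were at -0.23 ± 0.11, -0.18 ± 0.14, -0.12 ± 0.18 and -0.08 ± 0.10, with overlapping groups. A second locus that the table names Donson and GENCODE M21 names Atp5o had 0 counts in all libraries. Of the called members, Atp5f1d and Atp5md also share exon bases with a gene on the opposite strand, 68 with Cbarp and 16 with Taf5.

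Because subunits of a complex work together in fixed proportion, their transcripts were also set against each other within each library. These pairs were chosen after the values were seen and carry no test. Each pair described sets a member called lower over one that was not, so lower ratios follow in part from that choice. The FPKM ratio of Atp5f1b to Atp5f1a was 1.18, 1.12 and 1.12 in knockout libraries, against 1.53, 1.57 and 1.56 in control libraries. The ratio of Atp5f1d to Atp5f1a was 0.338, 0.348 and 0.285 in knockout libraries, against 0.501, 0.526 and 0.462 in control libraries. In the peripheral stalk, Atp5pb to Atp5po was 0.505 ± 0.0293 in the knockout and 0.776 ± 0.0852 in control (SD, n = 3 each). Scaling of the libraries cancels out of such ratios, and for each of these pairs the groups stayed apart.

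The same comparison in the other complexes, again of called members over members not called, gave lower ratios in the knockout too. Cox7b to Cox4i1 was 0.271, 0.248 and 0.267 in knockout libraries, against 0.432, 0.425 and 0.466 in control libraries. Cox7c to Cox4i1 was 0.453 ± 0.0262 in the knockout and 0.662 ± 0.0932 in control. Uqcr10 to Uqcrc1 was 0.536, 0.353 and 0.337 in knockout libraries, against 1.21, 0.859 and 0.871 in control libraries. Uqcrfs1 to Cyc1 was 1.14 ± 0.108 in the knockout and 1.53 ± 0.0692 in control. No knockout library reached a control library for any of these pairs, which also follows in part from their choice.

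**Figure D3:**
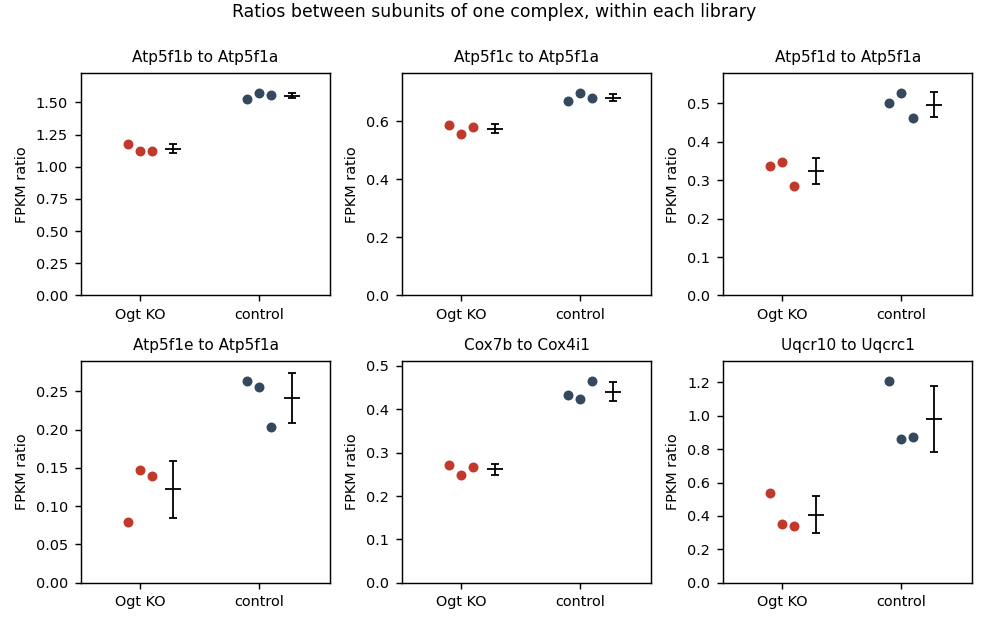
Ratio of FPKM between subunits of a complex within each library, with a point per library, a bar for the mean ± SD of each group (n = 3) and axes from 0. In all 6 panels the knockout points lie below the control points, for example between 1.12 and 1.18 against between 1.53 and 1.57 for Atp5f1b to Atp5f1a. This follows in part from choosing the pairs after the values were seen.

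The summed level of all members was 9729, 9612 and 9031 CPM in knockout libraries, against 10745, 11177 and 11142 CPM in control libraries, a ratio of 0.858 with no overlap. For complexes III and IV the CPM sums did not overlap either, at 1551 ± 57.4 CPM in the knockout and 1711 ± 9.58 CPM in control for complex III, and at 1934 ± 88.8 CPM in the knockout and 2184 ± 125 CPM in control for complex IV. As FPKM, which the authors scaled in their own way, the sums overlapped for complexes III and IV. The sum for complex V stayed apart as FPKM, at 4100, 4177 and 3995 in knockout libraries, against 4775, 4655 and 4550 in control libraries.

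**Figure D4:**
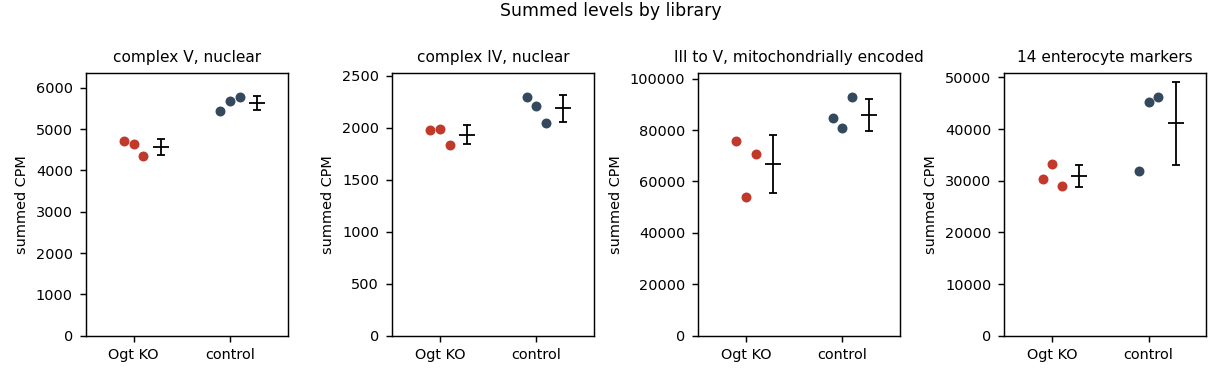
Summed CPM per library of the complex V genes, the complex IV genes, the 6 mitochondrially encoded subunits of complexes III to V, and 14 enterocyte markers, with the mean ± SD of each group (n = 3) and axes from 0. The complex V sums lie between 4337 and 4701 in the knockout and between 5445 and 5772 in control; in the enterocyte panel control library 1 (31938) lies among the knockout libraries.

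The mitochondrial genome encodes 6 further subunits of complexes III to V, and none of them passed the test. DESeq2 called 2 of them lower. Their median log2 fold change was -0.32. The cytochrome b gene mt-Cytb had 7933, 5635 and 7034 CPM in knockout libraries, against 10174, 9223 and 11132 CPM in control libraries, at -0.57 ± 0.19 (adjusted p = 0.0684). The oxidase core subunits mt-Co1, mt-Co2 and mt-Co3 were at -0.36 ± 0.22, -0.14 ± 0.18 and -0.45 ± 0.19, and the groups overlapped for mt-Co2. Summed over the 6, the ratio of mitochondrially encoded to nuclear subunits was 8.34 ± 1.5 in the knockout and 9.03 ± 0.678 in control (SD, n = 3 each; exact two-sided permutation p = 0.700, where 0.10 is the smallest possible).

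Assembly factors build the complexes but are not part of them. The list used here also holds Lrpprc, Taco1 and Fastk, which act on mitochondrial RNA or its translation. Of 49 listed factors 44 were tested, 8 rose and 3 fell, with a median log2 fold change of 0.20. The 8 are 18.2% of those tested, where 9.33% of all tested genes rose. Lrpprc, which stabilises mitochondrial messenger RNAs, had 87.6, 77.2 and 86.8 CPM in knockout libraries, against 59.6, 39.0 and 44.7 CPM in control libraries, and rose by 0.81 ± 0.16 on the log2 scale (adjusted p = 0.0128). Taco1, which activates translation of mt-Co1, rose by 0.71 ± 0.15 (adjusted p = 0.0176), and Uqcc2, which helps to make cytochrome b, by 0.90 ± 0.21 (adjusted p = 0.0222). Sdhaf4, Sco1, Cox18, Cox19 and Coa7 were the others that rose. The balance rested on the libraries used: without knockout library 3, 0 factors were called higher and 2 lower, and without knockout library 1 or 2 or control library 3, 2 were higher and 2 lower. Without control library 2 the counts were 3 higher and 2 lower, without control library 1 they were 9 higher and 3 lower, and with libraries scaled by size alone 19 higher and 2 lower.

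The factors that fell were Higd1a, Fastk and Surf1, all listed for complex IV. Higd1a, a hypoxia-induced protein that binds the oxidase, had 14.3, 13.1 and 12.5 CPM in knockout libraries, against 27.1, 27.0 and 27.5 CPM in control libraries. It fell by 1.03 ± 0.12 (adjusted p = 0.00263) and held its call with any library left out. Fastk, a mitochondrial RNA-binding protein known best for a complex I transcript, fell by 0.90 ± 0.12 (adjusted p = 0.00385). Surf1, which acts early in oxidase assembly, fell by 0.52 ± 0.13 (adjusted p = 0.0282), with an adjusted p between 0.0689 and 0.104 without any library but control library 1. The most abundant factor, Higd2a, was at 0.36 ± 0.11 (adjusted p = 0.0552).

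**Figure D5:**
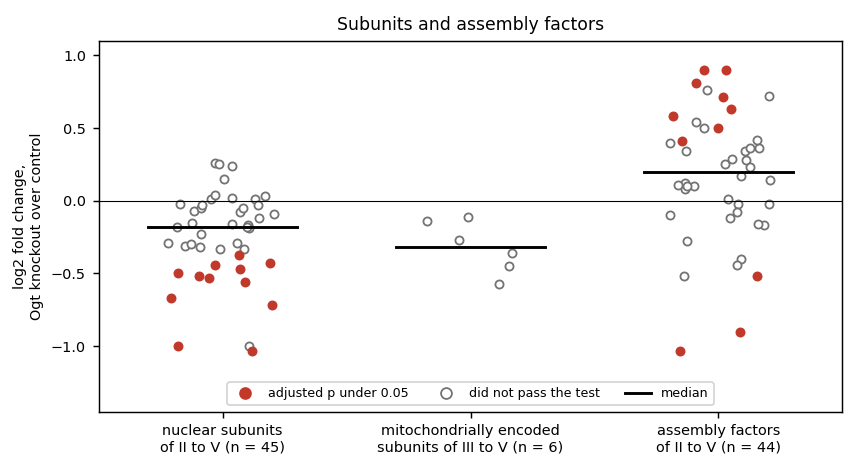
Log2 fold change (Ogt knockout over control) of the 45 tested nuclear subunits, the 6 mitochondrially encoded subunits and the 44 tested assembly factors of complexes II to V, with filled points past the adjusted p threshold of 0.05 and a line at each median. The medians are -0.18, -0.32 and 0.20, and filled points lie on both sides of 0 for the assembly factors only.

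Of 14 regulators of mitochondrial gene expression, 1 rose and 1 fell. Ppargc1a, the coactivator known for driving mitochondrial biogenesis, had 11.1, 12.7 and 10.9 CPM in knockout libraries, against 19.3, 35.6 and 32.8 CPM in control libraries. It fell by 1.34 ± 0.23 on the log2 scale (adjusted p = 0.00819), with no adjusted p above 0.0455 when a library was left out. Gabpb1, a subunit of the ETS factor GABP, rose by 0.45 ± 0.13 (adjusted p = 0.0487), and its adjusted p was 0.0186 without control library 1 and between 0.0846 and 0.132 without any other library. Esrra, a nuclear receptor that works with Ppargc1a and the most abundant of the list, was at -0.46 ± 0.15 (adjusted p = 0.0684), and Yy1 at 0.31 ± 0.09 (adjusted p = 0.0519).

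Complex I feeds electrons from NADH into the chain. Of 36 tested genes named as its nuclear subunits, 7 fell and 1 rose, with a median of -0.15. The 7 are 19.4%, where 9.37% of all tested genes fell. Ndufa3 fell by 1.63 ± 0.16 (adjusted p = 0.00162) and Ndufb5 by 0.47 ± 0.10 (adjusted p = 0.0188), while Ndufb4 rose by 0.41 ± 0.09 (adjusted p = 0.0174). Between 1 and 4 of the 36 were called lower with a library left out, and 1 with libraries scaled by size alone. Ndufa4, 1 of the 36 by its name, is now counted as a subunit of complex IV. It was not matched by the names of the members and was at -0.18 ± 0.25. Of 79 genes named as cytosolic ribosomal proteins, which like the members have short abundant transcripts, 4 fell and 1 rose, with a median of -0.24. The 4 are 5.06%, where 9.37% of all tested genes fell. The gene that rose was Rpl7l1, which is named as Rpl7-like. Rpl7, Rplp0 and Rpl23a had the smallest adjusted p-values, at -0.68 ± 0.17, -0.58 ± 0.15 and -0.66 ± 0.17, and none of the 79 was called lower with libraries scaled by size alone, where DESeq2 called 7 lower. Without control library 1, 8 were called higher and 3 lower, and without any other library 0 were called higher and at most 1 lower.

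Markers of some cell types within the epithelium moved as well. Of 14 absorptive enterocyte markers 5 fell, and their sums were 30360, 33277 and 29058 CPM in knockout libraries, against 31938, 45161 and 46204 CPM in control libraries. Without control library 1, 9 of the 14 markers were called lower, and between 2 and 3 without any other library. Of 8 tested tuft cell markers 7 fell, with sums between 15.1 and 19.6 CPM in the knockout and between 92.3 and 95.8 CPM in control. Of the stem cell and proliferation list 1 of 12 rose, or 8.33%, where 9.33% of all tested genes rose. Of the goblet cell list 2 of 8 fell, and of the Paneth cell list 1 of 10, where 9.37% of all tested genes fell. Of 10 enteroendocrine markers 2 rose and 1 fell. The part of these cell types in the levels of the respiratory genes was not tested.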

How the data were processed

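Bulk RNA-seq was available for 3 Ogt knockout and 3 control libraries from the NEBNext Ultra RNA kit (unstranded), per the labels' protocols. The authors deposited 1 table of 22274 genes with estimated counts and FPKM values per library, per the file headers. GRCm39 and mm39 are named in the submitters' processing notes, while aligner and counter were not given in the sources used here. Between 7.68% and 8.09% of estimated counts per library were not whole (tolerance 0.001), as were counts of Cycs, Uqcrc2, Cox6c and Atp5mc1 among the 45 tested members.

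Estimated counts were rounded and tested with edgeR 4.0.16 (R 4.3.3; TMM, filterByExpr with a minimum count of 10 and a minimum total of 15, robust quasi-likelihood fit, no covariate), with Benjamini-Hochberg adjustment over all tested genes. Alternatives used DESeq2 1.42.0, limma 3.58.1 on log2(FPKM + 0.1) or log2(FPKM + 0.01), other scalings and filters, a replicate block and each library left out. Ratios and shares used the deposited FPKM. Names came from the table and, by Ensembl ID, from GENCODE M21. The copies Gm10053, Gm11273 and Gm5426 were left out, and Atp5if1 was not analysed here. Named genes are all members that passed the threshold, per complex and list the 3 of lowest adjusted p and that of highest mean FPKM, and Ogt; other members are given to account for all. The members and gene lists were chosen with earlier results of these data known.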

Additional observations from a re-analysis of the deposited data

How the results depend on the processing

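No called member changed sign under any alternative run, while members near 0 did. The 12 calls of lower members were shared in full by edgeR with DESeq2's size factors, upper quartile scaling, at least 1 CPM in 3 libraries, or without the 20 most abundant genes, by limma voom and by DESeq2. Without a count filter 11 remained. Scaling by library size alone kept 8 and called 2 members higher, with 859 of all tested genes lower and 2045 higher and a member median of -0.05. On log2(FPKM + 0.1) or log2(FPKM + 0.01) with at least 1 FPKM, 6 members were called lower, and with at least 5 FPKM 8 were; each of the 3 called 1 member higher, as did DESeq2, gave a member median of -0.04, and called 724, 717 and 596 of all tested genes lower. The median of all tested genes lay between 0.09 and 0.14 under these 4 settings, so that the members stood between -0.14 and -0.18 from it. The cause of these differences was not tested.

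With a library left out, between 3 and 10 members were called lower and between 0 and 1 higher, and between 460 and 1372 of all tested genes lower and between 549 and 1932 higher. With the replicate number as a block, 15 members were called lower, adding Cox7a2l, Uqcrh and Uqcrq, with 1674 of all tested genes lower and 1728 higher; of the ribosomal protein genes 12 were then lower. Same-numbered libraries deviated together with correlations of 0.274, 0.253 and 0.084, and each library correlated best with its own number, a hint from the data and not from the labels. With 3 libraries a group and no lower total than 14389429 counts, precision was limited by the number of libraries, and by depth for Cox4i2, Cox6a2 and Cox8b.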
